A study of Rattus norvegicus with 6 samples.

Results

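Histone chaperones escort newly made histones to DNA, and 10 genes that serve the assembly of new chromatin were followed here in replicating and quiescent rat β-cells. Members were the non-control spots of the array files whose gene name equals *Asf1a*, *Asf1b*, *Chaf1a*, *Chaf1b*, *Nasp*, *Rbbp4*, *Rbbp7*, *Hira*, *Daxx* or *Slbp*. Of these 10 genes 9 had a probe under that name, with 15 of the 45598 probes tested; *Chaf1a* had none and was dropped. Islets of young adult male Wistar rats were cultured overnight in 5.5 mM glucose with the thymidine analogue EdU, which marks cells that copied their DNA during that time. Dispersed cells were then fixed and sorted, by size, granularity, Newport Green fluorescence and EdU, into replicating (EdU-positive) and quiescent (EdU-negative) β-cells. Each of 3 islet preparations, made from the islets of 4 rats that were pooled, gave 1 replicating and 1 quiescent sample, so that 6 arrays were available. Because EdU stays in the DNA after S phase, the replicating fraction can hold cells at any later stage of the cycle, and in sorted pools fewer cells at a stage and less RNA per cell cannot be told apart.

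When DNA is copied, the parental nucleosomes are shared between the daughter strands and the gaps are filled with new histones. NASP keeps a soluble reserve of histones H3 and H4, ASF1A and ASF1B take up an H3-H4 dimer and pass it on, and chromatin assembly factor 1, made of CHAF1A, CHAF1B and RBBP4, places it on DNA behind the sliding clamp PCNA. HIRA and DAXX deposit the variant H3.3 outside of replication, and SLBP binds the stem-loop of histone mRNAs, which lack a poly(A) tail, and is needed for their processing and translation. RBBP7 is the close relative of RBBP4. Both proteins also sit in histone deacetylase and Polycomb complexes, and RBBP4 in the MuvB complex.

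*Nasp*, *Rbbp7* and *Asf1b* were the 3 of the 9 genes that met the study's criteria for a higher level in replicating β-cells. These criteria ask for a log2 ratio of 1 or more in either direction together with an unadjusted p no larger than 0.05. No member met them for a lower level. Over all probes, 4.44% were called higher and 4.18% lower by the same criteria. No probe passed an adjusted p of 0.05 in limma with Benjamini-Hochberg adjustment (0% of all probes, 0 of the 9 genes; smallest adjusted p over all probes 0.0977), while 9.60% of probes, or 4379, had an unadjusted p of at most 0.05. Scaling the arrays to their 75th percentile in place of quantile normalization moved the shares to 3.93% higher and 12.7% lower. The log2 ratio, replicating over quiescent, had a median of 0.65 over the 9 genes, against -0.07 over all probes, and medians of 0.70, 1.02 and 0.08 in preparations 1, 2 and 3. In 4 of the 9 genes, *Nasp*, *Rbbp7*, *Asf1b* and *Daxx*, every replicating array lay above every quiescent array used, which held for 8.82% of all probes (for *Asf1b* over 2 quiescent arrays, whereas the share counts complete probes). The reverse held for 0 members and 6.96% of probes. The ratio was above 0 in every preparation measured in 5 members, and in 15.3% of probes. It was below 0 in every preparation in 0 members, and in 20.1% of probes. For *Asf1b* 2 preparations were measured, whereas the shares ask for all 3. These counts take the brightest probe of each gene.

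The sequences upstream of the start sites of the 3 genes called higher, and of *Rbbp4*, the relative of *Rbbp7*, are shown because promoters of genes active in the cell cycle often carry short motifs of known factors. They are the 250 bases before the RefSeq start on the gene's strand, build GRCr8. RefSeq promoter sequences were matched for 8 of the 9 members, all but *Asf1a*. Capitals mark the CCAAT box (CCAAT, or ATTGG where it lies on the opposite strand), an E2F-type motif (the letters TTCCCGC or the letters TTGGCGC or the letters TTCGCGC or the letters TTGCCGC, on either strand) and the CHR motif (TTTGAA on either strand).
Asf1b, chr19:41100353-41100602, minus strand: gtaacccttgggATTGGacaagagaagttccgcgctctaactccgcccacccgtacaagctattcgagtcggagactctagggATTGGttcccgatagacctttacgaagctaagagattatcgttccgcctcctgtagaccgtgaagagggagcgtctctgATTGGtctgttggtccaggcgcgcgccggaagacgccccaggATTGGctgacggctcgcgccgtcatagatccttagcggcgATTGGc
Nasp, chr5:135319592-135319841, minus strand: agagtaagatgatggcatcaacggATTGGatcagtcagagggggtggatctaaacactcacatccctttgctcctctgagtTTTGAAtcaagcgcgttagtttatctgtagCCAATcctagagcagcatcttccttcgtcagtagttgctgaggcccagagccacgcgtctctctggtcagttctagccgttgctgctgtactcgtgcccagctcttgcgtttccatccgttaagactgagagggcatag
Rbbp7, chrX:35563031-35563280, minus strand: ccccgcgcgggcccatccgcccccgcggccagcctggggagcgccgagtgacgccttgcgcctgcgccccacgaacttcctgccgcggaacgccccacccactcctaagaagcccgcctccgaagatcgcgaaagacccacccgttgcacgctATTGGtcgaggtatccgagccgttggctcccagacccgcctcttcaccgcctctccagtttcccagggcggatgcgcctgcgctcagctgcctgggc
Rbbp4, chr5:146959502-146959751, minus strand: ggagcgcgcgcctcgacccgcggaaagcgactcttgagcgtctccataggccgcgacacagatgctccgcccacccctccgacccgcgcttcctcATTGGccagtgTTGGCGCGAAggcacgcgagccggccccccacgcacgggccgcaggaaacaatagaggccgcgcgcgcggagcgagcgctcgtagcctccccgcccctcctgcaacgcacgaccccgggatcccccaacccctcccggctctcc

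The *Asf1b* sequence held 5 CCAAT boxes, all on the opposite strand, the last of them between -6 and -2 from the start. At least 5 were found in 0.179% of the 33469 RefSeq promoters of this length. *Nasp* had a CCAAT box on each strand and a CHR motif between -169 and -164, and *Rbbp7* had 1 CCAAT box. A CCAAT box was present in 34.0% of promoters and a CHR motif in 16.2%. *Rbbp4* had a CCAAT box and 2 E2F-type matches on opposite strands that overlap each other between -144 and -135, and *Slbp* had 1 E2F-type match between -245 and -239. E2F-type matches occurred in 2 of the 8 members and in 7.59% of all promoters. None of the 3 kinds of motif lay in these windows of *Chaf1b*, *Hira* or *Daxx*. A match is a description of the letters and not a measured binding site.

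The arrays were not equally alike. Signals were well above background for 80.8% to 87.3% of probes on the replicating arrays and for 85.7% to 98.4% on the quiescent arrays. Pearson's r across all probes was 0.967 to 0.986 among the replicating arrays and 0.654 to 0.868 among the quiescent arrays. Quiescent array 2 stood apart, with an r of 0.654 to 0.830 to the other 5 arrays and 1583 spots marked as outliers, against 252 to 299 elsewhere. Quiescent array 3 was closer to the replicating arrays, with an r of 0.963, 0.943 and 0.969 to replicating arrays 1, 2 and 3, than to quiescent arrays 1 and 2, with 0.868 and 0.654. Its share of probes well above background, 85.7%, also lay within the range of the replicating arrays, against 96.4% and 98.4% on quiescent arrays 1 and 2. The ratios of preparation 3 below, whose median over the members was the lowest, rest on that array, and its part in them was not tested. The cycle markers *Mki67*, *Pcna*, *Top2a*, *Mcm5* and *Ccnb1* were all called higher (5 of 5), with ratios of 1.68 to 3.76. Of 10 β-cell markers 9 were on the array and well above background on all 6 arrays. Of these, 3 had a ratio above 0, the median was -0.56, and 1, *Mafa*, was called lower. The 3 above 0 were *Iapp* (0.91), *Ins2* (0.42) and *Ins1* (0.25), none of them called. By qPCR the paper reports lower insulin expression in replicating β-cells. All 7 mesenchymal markers were higher, 3 of them (*Col3a1*, *Col1a2* and *Vim*) by the criteria, and their summed signal was 13.7 to 15.2 (log2) on the replicating and 12.1 to 12.6 on the quiescent arrays. The alpha cell list had 3 of 4 genes higher, 1 of them (*Gcg*) called, and summed signals of 14.3 to 16.4 against 12.4 to 13.9. *Gcg* alone read 14.2 to 16.4 against 12.3 to 13.8. The immune list had 3 of 3 higher, 1 called, and 11.0 against 9.86 to 10.6. *Sst* and *Ppy* were called as well. The acinar list had 4 of 4 higher, with *Prss1* alone called. The duct list had 0 of 4 higher and the endothelial list 2 of 3, with none called in either direction. No cell type list had a marker at 0, since every probe of an array carries some signal. Their part in the ratios below was not tested.

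**Figure D1:**
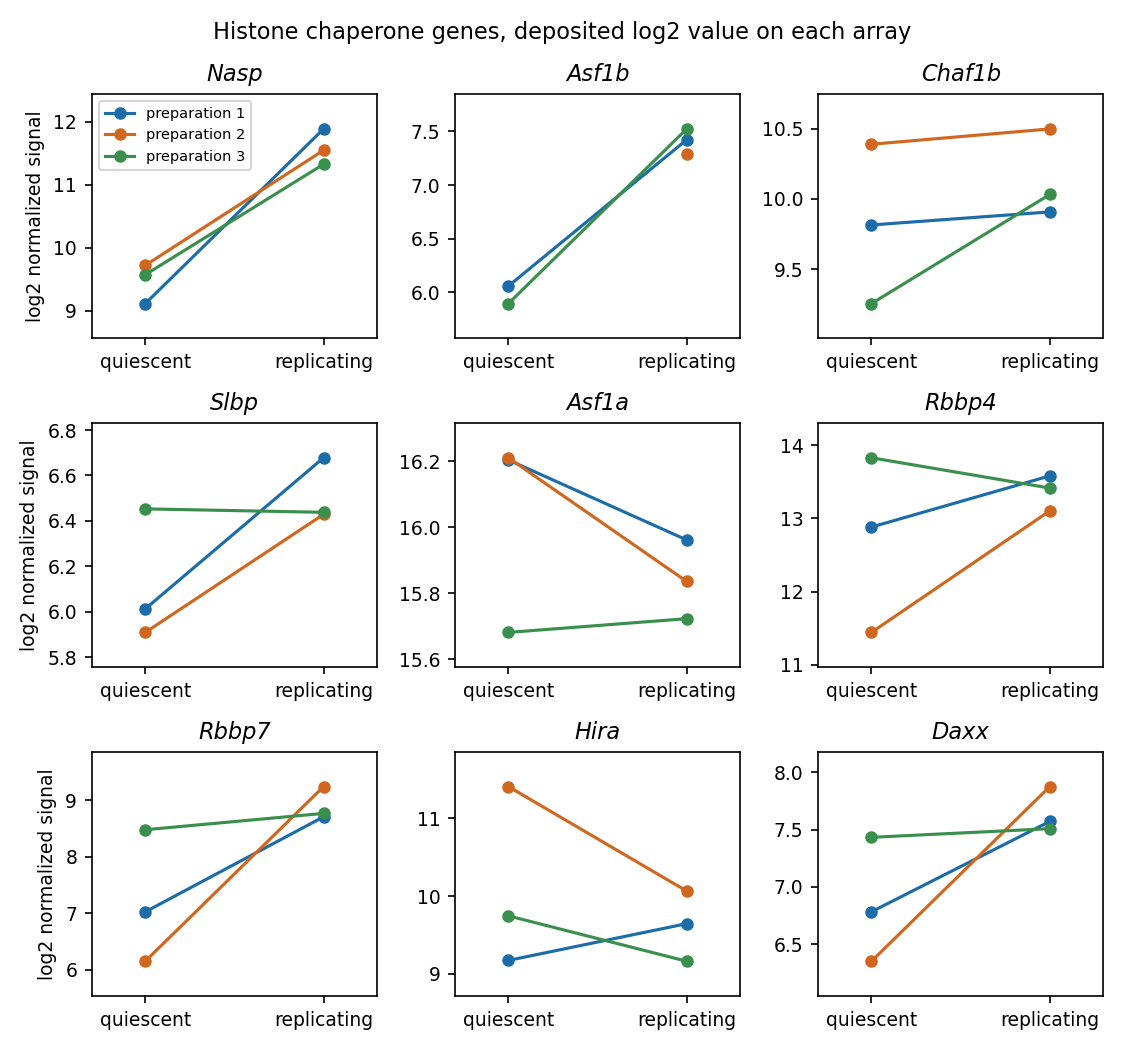
Deposited log2 signal of the brightest probe of each of the 9 genes (y axis, own scale per panel) on the quiescent and replicating array of each islet preparation, joined by a line. *Nasp* was higher by 1.76 to 2.77 in all 3 preparations, and the *Asf1b* spot of quiescent array 2 is missing as an outlier.

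*Nasp* had the largest ratio of the 9 genes as reported, though not under every alternative. Its brighter probe (chromosome 5, 136886003 to 136886062, rn4) read 11.89, 11.55 and 11.33 in replicating cells, preparations 1 to 3 in turn, the order kept for all genes. On the quiescent arrays it read 9.12, 9.72 and 9.57. Every replicating value was thus at least 1 log2 unit above every quiescent value. The means were 9.47 ± 0.32 in quiescent and 11.59 ± 0.28 in replicating cells (SD, n = 3), a log2 ratio of 2.12 (standard error 0.36, 95% interval 1.19 to 3.05) or 4.35-fold, with an adjusted p of 0.340 in limma. The ratio lay above that of 99.3% of all probes. A second, dimmer probe of the gene (136884263 to 136884322), gave a ratio of 1.86 (standard error 0.44), and 2.46, 2.28 and 0.85 by preparation. Both probes met the criteria, and the brighter met them under all 14 alternatives, between 1.79 and 2.30. *Asf1b* had a larger ratio than *Nasp* at normexp offsets of 16 (2.43) and 0 (3.44) and with the processed signal (3.96). *Rbbp7* had a larger ratio than *Nasp* at an offset of 0 (2.35) and without preparation 3 (2.38).

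*Asf1b*, the ASF1 form known from proliferating cells, was dim. Its probe (chromosome 19, 25867744 to 25867803) read 7.42, 7.29 and 7.52 on the replicating arrays, all well above background. On quiescent arrays 1 and 3 it read 6.06 and 5.89, not well above background on either. The spot on quiescent array 2 was well above background but was marked as an outlier and left out. The fit of this gene thus rests on preparations 1 and 3. The measured means were 7.41 ± 0.12 (SD, n = 3) and 5.98 ± 0.12 (SD, n = 2). On quiescent arrays 1 and 3 a floor was set, the higher of its own reading and the dimmest signal that was well above background. Against it the log2 ratio of *Asf1b* was at least 1.37 in preparation 1 and at least 1.21 in preparation 3. No such bound was computed for preparation 2. The fitted log2 ratio was 1.50 (standard error 0.42) with an adjusted p of 0.475 in limma. With the outlier spot kept, quiescent array 2 read 7.20, preparation 2 had a ratio of 0.09, and the criteria were no longer met (ratio 1.03, unadjusted p = 0.0589 in limma). The groups did not overlap with that spot included either.

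*Asf1a*, the form expressed in resting and dividing cells alike, was among the brightest probes. Its probe (chromosome 20, 32276385 to 32276444) read 15.96, 15.84 and 15.72 on the replicating and 16.20, 16.21 and 15.68 on the quiescent arrays. The groups overlapped, and 99.7% of all probes had a lower mean signal. The log2 ratio was -0.19 (standard error 0.31, 95% interval -0.98 to 0.60), so that for this probe a rise by more than 0.60 lies outside the interval. Whether a probe this bright would show a change in the transcript was not tested. Because *Asf1b* was not well above background on quiescent arrays 1 and 3, its difference from *Asf1a* has only a lower bound. Against the same floor the ratio of *Asf1b* exceeded that of *Asf1a* by at least 1.61 in preparation 1 and by at least 1.17 in preparation 3. With 2 preparations an exact sign-flip permutation test cannot go below p = 0.5, so no test of this difference was informative.

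*Chaf1b*, the middle subunit of chromatin assembly factor 1, had 2 probes and met the criteria with neither. The brighter (chromosome 11, 34130836 to 34130895) read 9.91, 10.50 and 10.03 on the replicating and 9.81, 10.39 and 9.26 on the quiescent arrays. Here the arrays of preparation 2 were the highest of both groups, and the groups overlapped. The ratio was above 0 in each preparation, at 0.09, 0.11 and 0.78, with a fitted value of 0.33 (standard error 0.33, 95% interval -0.52 to 1.17). The dimmer probe gave 0.67 (standard error 0.33), with 0.29, 1.00 and 0.71. The largest subunit, *Chaf1a*, has no probe by its name, but the description of 1 probe, which the array files list under an Ensembl transcript on an unplaced sequence, names it. That probe, chosen after its values were seen and no member, had a ratio of 1.51 (standard error 0.55), and 2.39, 0.04 and 2.10 by preparation. It met the criteria (unadjusted p = 0.0392 and adjusted p = 0.475 in limma). Its quiescent array 2 read 10.67, level with the replicating arrays at 9.99 to 10.71, whereas quiescent arrays 1 and 3 read 8.10 and 7.89.

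*Slbp*, which serves histone mRNA, was close to the background. Its probe (chromosome 14, 82777667 to 82777726) read 6.68, 6.43 and 6.44 on the replicating arrays and 6.01, 5.91 and 6.45 on the quiescent arrays. It was well above background on 2 of the 3 replicating arrays and on 1 of the 3 quiescent arrays. The groups overlapped through preparation 3, where the ratio was -0.02, against 0.67 and 0.52 in preparations 1 and 2. The fitted ratio was 0.39 (standard error 0.33, 95% interval -0.45 to 1.23).

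**Figure D2:**
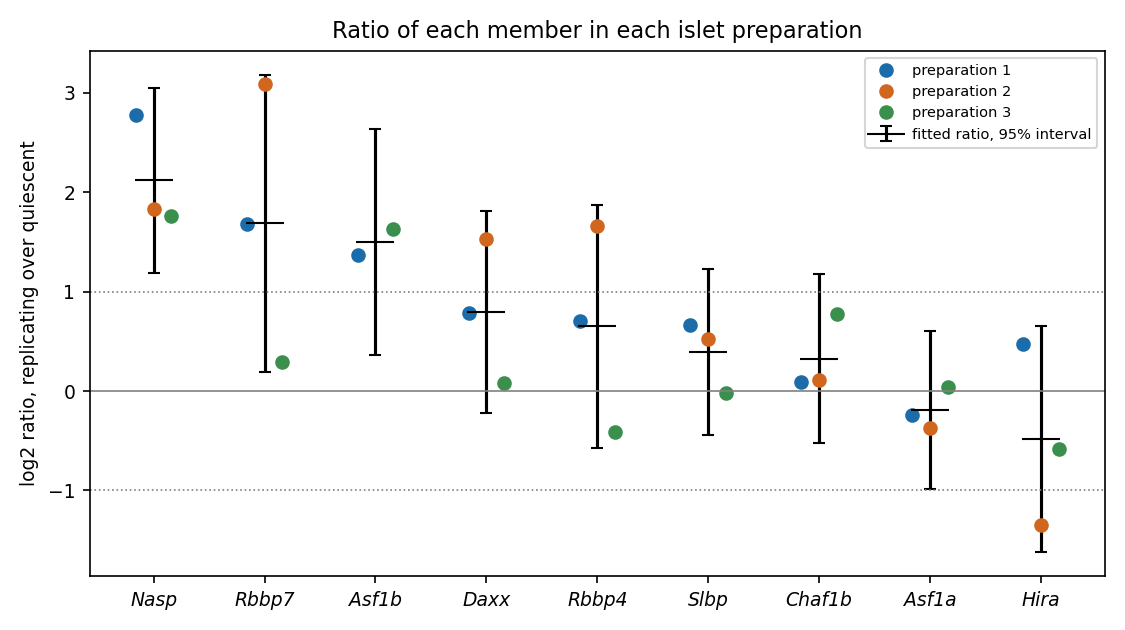
Log2 ratio of replicating over quiescent β-cells (y axis) for the 9 genes (x axis), with 1 point per islet preparation and the limma ratio with its 95% interval as a bar; dotted lines mark ratios of 1 and -1. The intervals of *Nasp*, *Rbbp7* and *Asf1b* lie above 0, and *Rbbp7*, *Daxx* and *Rbbp4* have their highest point in preparation 2 and their lowest in preparation 3.

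The histone-binding WD40 proteins RBBP4 and RBBP7 are encoded by relatives. *Rbbp7* (chromosome X, 52670130 to 52670704) read 8.71, 9.24 and 8.77 on the replicating arrays and 7.03, 6.15 and 8.48 on the quiescent arrays. All replicating values lay above all quiescent values, but the margin was small in preparation 3. The ratios were 1.68, 3.09 and 0.29, and the fitted ratio was 1.69 (standard error 0.59, 95% interval 0.19 to 3.18), or 3.22-fold, with an adjusted p of 0.475 in limma. Without preparation 2, whose quiescent array stood apart, the ratio was 0.98 and no longer met the criteria (unadjusted p = 0.0735 in limma). Without preparation 1 the ratio was 1.69 but the unadjusted p in limma was 0.121.

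*Rbbp4* was covered by 4 probes within 1 kb of chromosome 5. The brightest (148472584 to 148472643) read 13.58, 13.10 and 13.41 on the replicating and 12.88, 11.44 and 13.83 on the quiescent arrays. It was lower in replicating cells in preparation 3, where its ratio was -0.41, against 0.70 and 1.66 in preparations 1 and 2. The fitted ratio of 0.65 (standard error 0.48) did not meet the criteria. The other 3 probes were higher on every replicating array than on any quiescent array. Their ratios were 1.13 (standard error 0.32), 0.82 (0.31) and 0.89 (0.31), in order of brightness, and in preparation 3 they were 1.07, 1.01 and 0.81. Of these, the first met the criteria, and the first and the second overlap in position by part of their length (148472993 to 148473052 and 148472947 to 148473006). The probes therefore disagreed on *Rbbp4* in preparation 3, and a call for this gene depended on the probe. On the brightest probes, the ratio of *Rbbp7* exceeded that of *Rbbp4* by 0.98, 1.43 and 0.70, a mean of 1.04 ± 0.37 (SD, n = 3), with p = 0.25 in an exact two-sided sign-flip permutation test, which is the smallest p that 3 preparations allow. That single direction depended on the probe. With any of the other 3 *Rbbp4* probes, a comparison added after their values were seen, the difference in preparation 3 turned negative, at -0.78, -0.72 and -0.52. The means were then 0.55, 0.86 and 0.79, with SDs of 1.22 to 1.50 (n = 3).

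**Figure D3:**
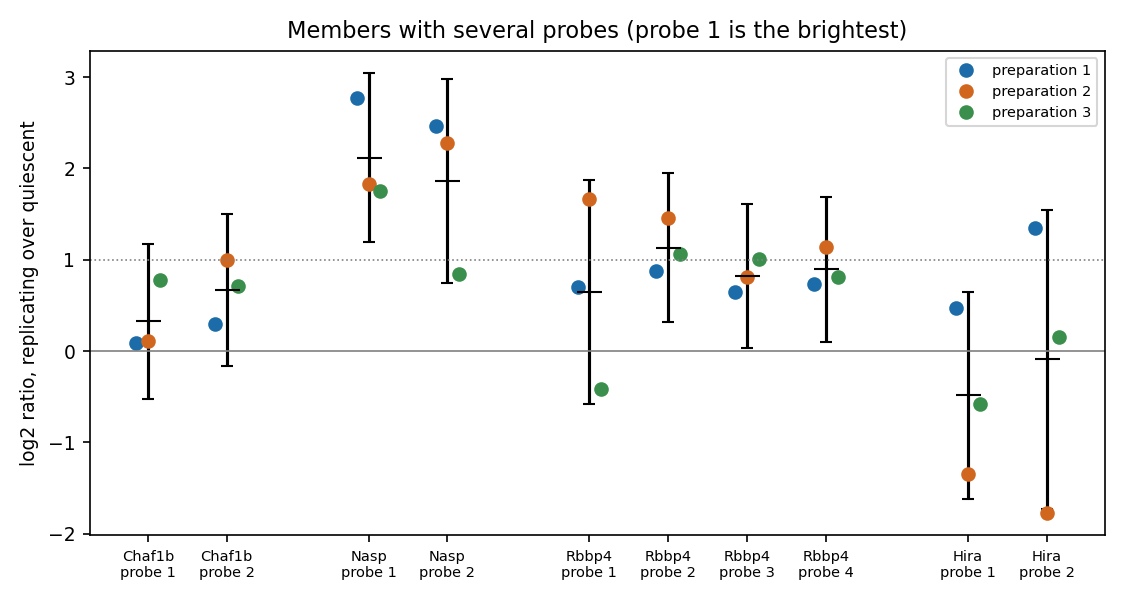
Log2 ratio (y axis) for every probe of the 4 genes with more than 1 probe (x axis, probes in order of brightness), with 1 point per preparation and the limma ratio with its 95% interval. *Nasp* lies above 0 with both probes, the brightest is the one *Rbbp4* probe below 0 in preparation 3, as is the brighter *Hira* probe, and both *Hira* probes are lowest in preparation 2.

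The chaperones of H3.3 did not meet the criteria in either direction. *Hira* had 2 probes on an unplaced part of chromosome 11. The brighter read 9.65, 10.07 and 9.16 on the replicating and 9.17, 11.41 and 9.75 on the quiescent arrays. Quiescent array 2 was the highest of the 6 and the groups overlapped. The ratios were 0.47, -1.34 and -0.58, with a fitted value of -0.49 (standard error 0.45), and the dimmer probe gave -0.09 (standard error 0.64) with 1.35, -1.77 and 0.15. The sign for *Hira* thus differed between preparations with either probe. *Daxx* (chromosome 20, 5123814 to 5123873) read 7.57, 7.88 and 7.51 on the replicating and 6.78, 6.35 and 7.43 on the quiescent arrays, without overlap. Its ratios of 0.79, 1.52 and 0.08 gave a fitted value of 0.80 (standard error 0.40, 95% interval -0.22 to 1.81). Without preparation 3 its ratio was 1.16 and met the criteria (unadjusted p = 0.0490 in limma). In that setting 11.2% of all probes were called higher and 12.4% lower.

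By role, the 4 measured genes tied to replication (*Nasp*, *Asf1b*, *Chaf1b* and *Slbp*) were all above 0, with a median ratio of 0.94, and 2 of them met the criteria. Of the 3 genes with several roles (*Asf1a*, *Rbbp4* and *Rbbp7*) 1 met them, with a median of 0.65. Of *Hira* and *Daxx* neither did. Of all probes, 4.44% were called higher and 45.3% had a ratio above 0. Among the genes tied to replication, the intervals of *Nasp* and *Asf1b* lay above 0. Those of *Chaf1b* (-0.52 to 1.17) and *Slbp* (-0.45 to 1.23) included 0, and *Slbp* was close to the background. The medians by role describe few genes, and the difference between roles was not tested.

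Other genes that handle histones were read from lists of the pathway. Beside the counts in each list below stand the shares over all probes: 4.44% called higher, 4.18% called lower and 45.3% with a ratio above 0. Among 16 further H3-H4 chaperones and partners, 5 met the criteria, all higher, and 13 had a ratio above 0, with a median of 0.77. The highest was *Hat1*, the enzyme that acetylates new histone H4, at 2.62 (standard error 0.56; 2.48, 3.99 and 1.39 in the preparations). *Dnajc9*, a heat shock co-chaperone that binds H3-H4, had a ratio of 2.23 (1.85, 4.16 and 0.69). *Hjurp*, the chaperone of the centromeric H3 variant CENP-A, was at 1.80 (1.94, 0.86 and 2.62). *Mms22l*, which acts on H3-H4 at damaged forks, was at 1.46 and *Mcm2*, a helicase subunit that also binds parental H3-H4, at 1.19. Partners of HIRA, named for their role after their values were seen, were not called: *Ubn1* had a ratio of 0.34, *Ubn2* of 0.69 and *Cabin1* of -0.79. *Atrx*, the partner of DAXX, was at 1.09 with -0.43 in preparation 3. *Tlk2*, whose kinase acts on ASF1, was at 1.26 (0.93, 2.74 and 0.12) and was not called.

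Of 11 H2A-H2B chaperones and FACT subunits on the array, 1 met the criteria, *Anp32e*, which removes H2A.Z, at 1.52 (1.63, 2.00 and 0.95). The median was 0.67, with 0.71, 1.63 and 0.02 in preparations 1, 2 and 3. *Supt16h*, a FACT subunit, had a ratio of 1.21 and was not called. *Nap1l1*, a carrier of H2A-H2B, at 1.24 and not called, had 1.05, 2.73 and -0.06. In this list too, preparation 2 had the highest and preparation 3 the lowest median, as in *Rbbp7* and *Daxx*.

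Of 10 genes for the synthesis and trimming of histone mRNA, 2 met the criteria: *Cpsf2* at 1.48 and *Eri1*, an exonuclease that acts on the histone stem-loop, at 1.35. Of those not called, *Cstf2* was at 0.97 and *Casp8ap2* at -0.67. Array names that begin with Hist stood for 28 core and linker histone genes, of which 15 were called higher and 1, *Hist2h2aa3*, lower, with a median of 1.29. Histone genes are near-identical copies, so a probe may read several of them.

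Among 21 partners of RBBP4 or RBBP7 in other complexes, 3 were called higher and 1 lower, with a median of 0.37. *Sap30*, of the SIN3 deacetylase complex, was at 2.15 (2.12, 3.90 and 0.43), and *Ezh2*, the Polycomb methyltransferase, at 1.25 (1.47, 1.65 and 0.62). *Lin54* and *Lin52*, both of MuvB, differed in sign, at 1.71 and -1.52. The largest ratios not called were those of *Gatad2b* and *Mbd2*, both of the NuRD deacetylase complex, at 1.59 and 1.49, and each was largest in preparation 2 (3.78 and 3.72). The value of *Lin54* rests on preparations 1 and 3, as its spot on an array of preparation 2 was an outlier. Over these 4 lists without the members, 11 genes were called higher and 1 lower. Without preparation 1 only 2 were called higher, and without preparation 3 there were 20. The share of all probes called higher moved as well, from 4.44% to 1.14% without preparation 1 and to 11.2% without preparation 3.

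**Figure D4:**
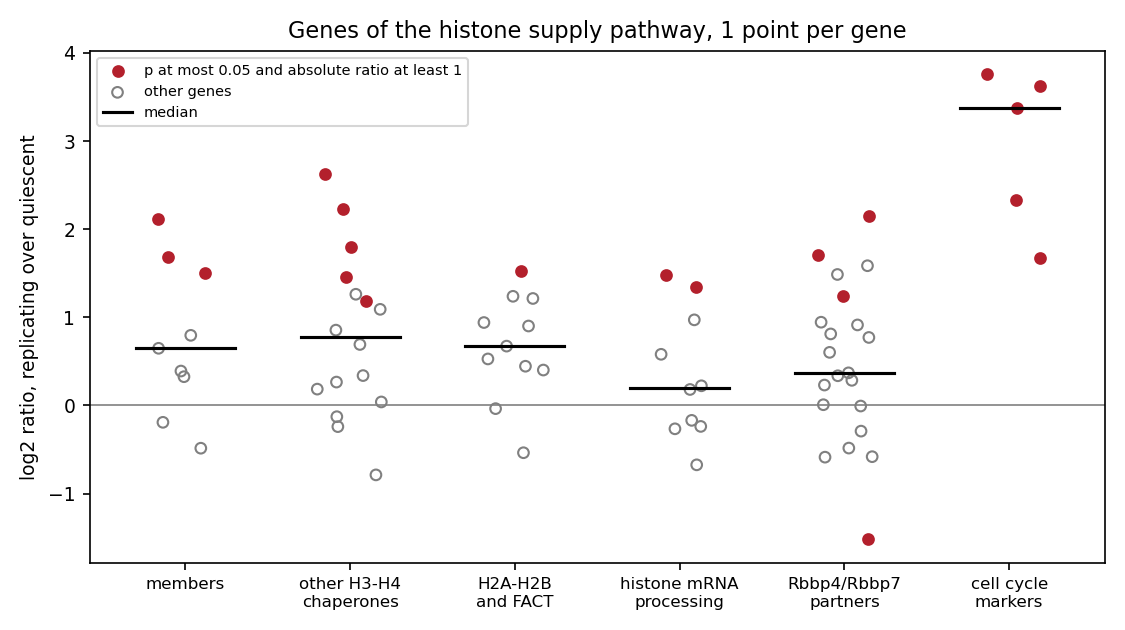
Log2 ratio of replicating over quiescent β-cells (y axis), 1 point per gene. The x axis gives the 9 members, 4 lists of genes that handle histones or are partners of RBBP4 or RBBP7, and 5 cycle markers. Filled points met the criteria and bars mark medians; the member median is 0.65 and that of the cycle markers 3.38.

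As reported, no member reached the median ratio of the 5 markers, 3.38. *Nasp* at 2.12 was above *Pcna*, at 1.68, and below the other 4. The ratio of *Asf1b*, 1.50 as reported, is limited by the background on quiescent arrays 1 and 3. It was 3.44 at a normexp offset of 0 and 3.96 with the processed signal. Whether *Asf1b* falls short of the markers thus cannot be told. The difference from the markers was not tested. The 3 genes whose values over the arrays were most like those of *Chaf1b* among 16007 genes were *Nup98*, *Stx5* and *Slfn5* (Pearson's r 0.989, 0.975 and 0.968 over 6 arrays). For *Asf1a* they were *Trpm5*, *Trpv3* and *Vwce* (r 0.991, 0.991 and 0.990). For *Asf1b*, over the 5 arrays with a value, they were *Hist2h3c2*, *Cdca3* and *Ddx39a* (r 1.000, 0.999 and 0.998), whose ratios were 1.61, 4.49 and 0.73. These are the extremes of many genes over few arrays, which share a normalization and a group difference, and are given as a description.

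**Figure D5:**
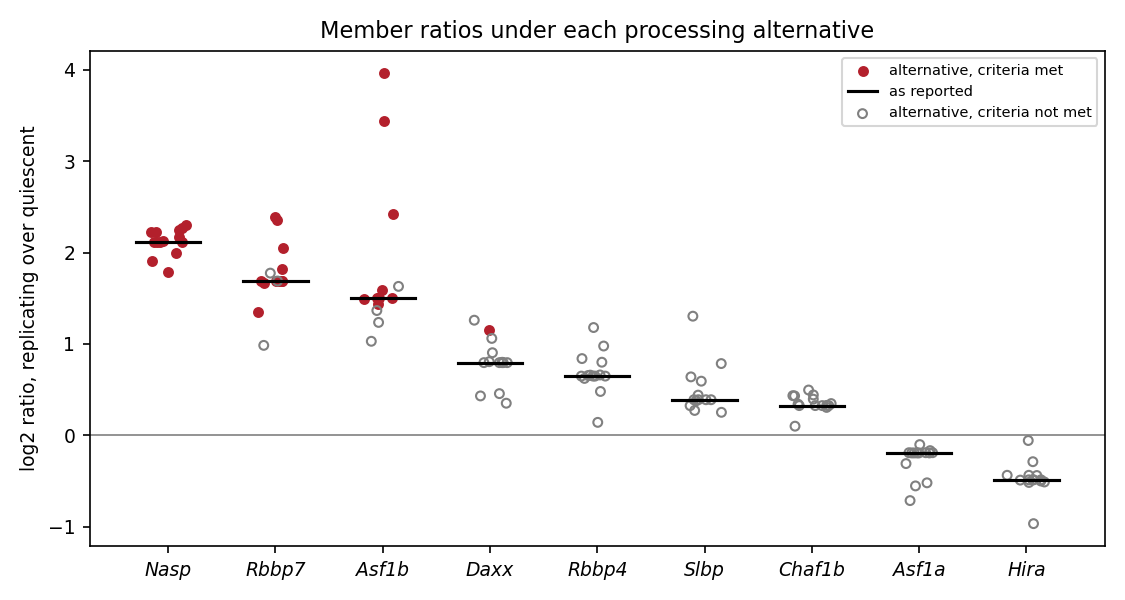
Log2 ratio of each member (y axis) under each processing alternative (points; filled where the criteria were met) and as reported (bar). No gene changed sign, *Nasp* met the criteria throughout, and *Asf1b* ranged from 1.03 to 3.96.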

How the data were processed

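After whole transcriptome amplification, Cy3-labelled cDNA of the sorted cells was read on Agilent rat arrays on 1 slide with 1 scan. Agilent Feature Extraction 10.7.3.1 gave the deposited intensity of each spot and marks for outliers and for signal well above background; probe positions are on rn4. The authors corrected background with normexp, normalized by quantiles and deposited log2 values per spot, which were used here. They had a Spearman's rho of 1 with normexp at an offset of 50 computed from the deposited intensities and differed by at most 0.116; every array had a median of 8.32.

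Control spots were left out, outlier spots set to missing and spots of a probe averaged. limma 3.58.1 in R 4.3.3 was fitted to all 45598 probes with the islet preparation as a block, following the study's methods, with Benjamini-Hochberg adjustment. The labels and methods pair the samples; the 2 arrays of a preparation departed from their group's mean with a Pearson correlation of 0.0561, 0.242 and 0.258 in preparations 1, 2 and 3. Where a gene had more than 1 probe, the brightest over the 6 arrays stood for it. Of the 15 probes, 14 had an accession that RefSeq (GRCr8) gives the same symbol. The fit was tested on simulated data. No spot was saturated. The members and lists were chosen with earlier results of these data known. The rule named all members and allowed list genes past the criteria (of the histones, only a few are given), the 2 largest others of a list, and the 3 genes most correlated with *Asf1a*, *Asf1b* and *Chaf1b*; 3 partners of HIRA were named outside it; a planned difference of *Chaf1b* over *Chaf1a* was not computed, as *Chaf1a* was dropped. Alternatives covered the source of the values, normexp offset, normalization, processed signal, outliers, dim probes, block, variance trend, probe choice and each preparation left out. Precision is limited by having 6 arrays.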

Additional observations from a re-analysis of the deposited data

How the results depend on the processing

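No member changed sign under the alternatives run, which gave no value for *Slbp* when dim probes were left out. *Nasp* met the criteria under 14 of 14, *Rbbp7* under 11 and *Asf1b* under 10; *Daxx* met them under 1 and the other 5 members under 0. The count of members called was 3, and lay between 1 and 3 with a preparation left out: 1 (*Nasp*) without preparation 1, 2 without preparation 2 and 3 (*Nasp*, *Rbbp7* and *Daxx*) without preparation 3. Their median ratio was 0.43 to 1.16 with a preparation left out and 1.26 with a normexp offset of 0. *Rbbp7* was lost with the processed signal (1.77, unadjusted p = 0.0550 in limma), and *Asf1b* with 75th percentile scaling (1.24, unadjusted p = 0.0614 in limma) and without preparation 1 or 3. With 75th percentile scaling 1 member, *Nasp*, passed an adjusted p of 0.05 in limma (0.0190; range over its alternatives 0.0190 to 0.966), and the probes called rose from 3928 to 7594. That scaling and the processed signal moved the median of all probes to -0.36 and -0.68. The probes called were 581 without preparation 1, 2260 without preparation 2 and 10745 without preparation 3, and the genes called higher in the pathway lists, 11 as reported, ranged from 2 (without preparation 1) to 20 (without preparation 3), and were 6 with the processed signal. The probes past an adjusted p of 0.05 in limma, 0 as reported, were 903 with 75th percentile scaling, 204 with cyclic loess, 99 without the block, 84 without preparation 2 and 61 with a variance trend. The cause of these changes was not tested.

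The measured difference of *Asf1b* over *Asf1a*, 1.60 as a mean of preparations 1 and 3, is limited by the background on the quiescent arrays and moved with its treatment: it was 1.69 from the scanner files, 2.52 and 3.54 at normexp offsets of 16 and 0, 1.84 with 75th percentile scaling, 1.86 with cyclic loess, 4.56 with the processed signal and 1.22 with outlier spots kept. That of *Rbbp7* over *Rbbp4*, 1.04, was 1.69 at an offset of 0 and 0.55 with 75th percentile scaling, and lay between 0.84 and 1.20 with a preparation left out. With the other 3 *Rbbp4* probes, an alternative chosen after seeing the data, it was 0.55, 0.86 and 0.79 and was below 0 in preparation 3 with each. Without the replicate block 3 members and 2757 probes were called, and the block changed no member's call. Signal over background limits *Asf1b* and *Slbp*.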
